A study of Homo sapiens with 49 samples.

Results

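The genes described here encode the proteins that store transmitter in vesicles and fuse vesicles with membranes. They were chosen by symbol, with earlier results of these data known. Taken were the synaptotagmins (SYT), synapsins (SYN1 to SYN3), SV2 proteins, RAB3 GTPases, VAMP proteins, syntaxins (STX), syntaxin-binding proteins (STXBP), SNAP23, SNAP25 and SNAP29, complexins (CPLX) and RIM proteins (RIMS). This gave 67 members among the 23713 entries of each table of expression values. RNA of 2 established human neuroblastoma lines was sequenced. In SHEP-21N, a TET-off MYCN line, doxycycline at 0.2 µg/ml turns the MYCN transgene off. They were sampled at 0 h (2 libraries) and after 2, 4, 6, 8, 16 and 24 h (3 libraries each). BE(2)-C cells carry a tetracycline-inducible short hairpin RNA against TWIST1 that doxycycline at 0.5 µg/ml switches on. They were sampled without doxycycline and after 3, 6, 12, 24 and 48 h, with 3 libraries each. Cells given doxycycline but lacking either construct are not among the samples analysed, so an effect of doxycycline itself cannot be told apart from MYCN loss or the hairpin. The labels do not say whether replicates were separate cultures, and p-values then measure the spread between these libraries, which may be technical. They also do not say whether the engineered lines are single clones.

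A vesicle fuses when a VAMP protein on its membrane zips together with a syntaxin and a SNAP25-type protein on the target membrane. Syntaxin-binding proteins of the Munc18 type hold the syntaxin ready, RAB3 GTPases and RIM proteins bring vesicles to the release site, complexins clamp the partly zipped complex, and synaptotagmins sense calcium. Synapsins tether vesicles in a reserve pool and SV2 proteins are vesicle membrane glycoproteins. Neurons and chromaffin cells, relatives of the sympathetic lineage from which neuroblastoma arises, use neuronal paralogs such as SYT1, SNAP25 and STX1A, while most cell types traffic membranes with broadly expressed paralogs such as SNAP23, VAMP3 and STX4.

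Both targeted regulators are basic helix-loop-helix proteins, a class that binds the E-box, CANNTG. The upstream sequences of 4 members are shown because these genes are among those that changed below and because their windows, from position -220 to -21 before the RefSeq gene start, hold no more than 1 E-box each. Every CANNTG is in capitals and each sequence reads 5′ to 3′ on the gene's own strand. The windows come from RefSeq on GRCh38.p14 and lie at chr7:73719690-73719889 (minus strand, STX1A, a plasma membrane syntaxin of neurons), chr1:108746454-108746653 (plus strand, STXBP3, the broadly expressed Munc18c), chr19:11339678-11339877 (minus strand, RAB3D, a RAB3 GTPase of secretory cells) and chr12:130839271-130839470 (minus strand, STX2, a plasma membrane syntaxin).
STX1A: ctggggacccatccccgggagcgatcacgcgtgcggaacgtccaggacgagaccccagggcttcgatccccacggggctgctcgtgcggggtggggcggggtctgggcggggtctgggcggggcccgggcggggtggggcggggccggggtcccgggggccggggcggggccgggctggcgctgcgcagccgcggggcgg
STXBP3: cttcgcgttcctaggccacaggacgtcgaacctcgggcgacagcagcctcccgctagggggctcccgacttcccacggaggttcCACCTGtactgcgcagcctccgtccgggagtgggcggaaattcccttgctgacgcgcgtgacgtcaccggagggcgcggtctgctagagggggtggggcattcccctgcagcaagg
RAB3D: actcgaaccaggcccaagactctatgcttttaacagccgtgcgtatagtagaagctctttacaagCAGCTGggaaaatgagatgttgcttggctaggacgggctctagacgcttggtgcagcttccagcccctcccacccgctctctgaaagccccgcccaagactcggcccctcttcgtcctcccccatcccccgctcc
STX2: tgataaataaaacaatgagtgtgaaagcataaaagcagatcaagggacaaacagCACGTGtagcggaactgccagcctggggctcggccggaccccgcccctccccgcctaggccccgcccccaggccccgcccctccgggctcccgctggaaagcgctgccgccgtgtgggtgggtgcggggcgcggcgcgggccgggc
The STX1A window holds no CANNTG and is 82.5% G or C. That of STXBP3 holds 1, spelled CACCTG. The RAB3D window also holds 1, CAGCTG, and the STX2 window holds CACGTG. Of 67 members 53 were found in the promoter table. In the full windows of 300 bases (250 before and 50 after the start, both strands), CANNTG was present in 38 of 53 members (71.7%) against 68.9% of 27305 promoters. The hexamer CACGTG, which is one form of CANNTG and the form MYC proteins bind best, was present in 7 of 53 members (13.2%) against 7.43% of all promoters. CATCTG or its reverse complement CAGATG was present in 8 of 53 (15.1%) against 14.8%. These are matches of letters and not binding sites.

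Values are FPKM, fragments scaled by transcript length and library size, a level that can be compared between genes. The authors deposited them on 2 scales, unnormalised and rescaled to ERCC spike-in RNA that was added at lysis. A change is a log2 fold change of FPKM + 1, which understates changes of low genes, and a gene is said to rise or fall where the limma adjusted p was under 0.05 over all tested genes. MYCN stood at 723 and 855 rescaled FPKM at 0 h and at 11.2 to 17.3 at 24 h in SHEP-21N cells (fell by 5.72, adjusted p = 3.24e-12). TWIST1 stood at 70.3 to 91.8 rescaled FPKM without doxycycline and at 4.6 to 11.2 at 48 h in BE(2)-C cells (fell by 3.29, adjusted p = 4.12e-08). Of 10 adrenergic neuroblastoma markers only 3 reached 1 FPKM in untreated SHEP-21N cells, with PHOX2A, DBH, TH and CHGA under 0.1 in both libraries, while 10 of 10 mesenchymal markers did. In untreated BE(2)-C cells 10 of 10 adrenergic markers reached 1 FPKM, and 4 of 10 mesenchymal markers did, with PRRX1, FOSL1 and YAP1 under 0.1 in every library. The mesenchymal list summed to 614 to 1132 unnormalised FPKM there. Blood markers summed to 0.195 FPKM or less in every untreated library of either line. The BE(2)-C library numbered 1 without doxycycline stood apart from its 2 replicates (r of log2 values across genes 0.982 and 0.984, against 0.994 between those 2). Spike-ins made up 57913 to 140361 unnormalised FPKM in the 3 BE(2)-C libraries at 48 h against 21429 to 36863 without doxycycline, and 30829 to 47480 against 29685 and 34804 for SHEP-21N at 24 h and 0 h. FPKM give no read numbers, so depth is unknown.

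The members that reached the level for testing were not all the same in the 2 lines, counted first over all libraries of a line, treated ones included. Testing needed a mean of at least 1 unnormalised FPKM over all libraries of a line. This was reached by 34 members in SHEP-21N and 43 in BE(2)-C cells, and by 30 in both. Over all genes it was reached by 11867 in SHEP-21N and 11433 in BE(2)-C cells. The share of all genes that reached it in only 1 line was not computed. The counts therefore do not show that the members differ more between the lines than other genes. RAB3B, STX11, STX3 and STXBP6 passed only in SHEP-21N cells. The 13 that passed only in BE(2)-C cells were CPLX1, CPLX2, RAB3C, RIMS3, SYN1, SYN2, SYT1, SYT14, SYT4, SYT5, SYT7, SYT9 and VAMP5. By family, 7 of 17 synaptotagmins passed in BE(2)-C cells and 1, SYT11, in SHEP-21N cells. For complexins it was 2 of 4 against 0, and for synapsins 2 of 3 against 0. The members nearest the filter were SYT12 (0.725, not tested) and RAB3D (1.41, tested) in SHEP-21N cells, and SYT15 (0.431, not tested) and VAMP1 (1.36, tested) in BE(2)-C cells. At 0 h the mean of RAB3D in SHEP-21N cells was 0.942, under the filter. These unnormalised levels were deposited apart for each line, and no p is given between the lines.

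Of the members higher in BE(2)-C cells, CPLX2, RAB3C, SYT1 and CPLX1 had the largest differences of log2(FPKM + 1) between the untreated lines. CPLX2, a complexin, was listed at 0 and 0.010 unnormalised FPKM in SHEP-21N cells and at 121, 121 and 125 in BE(2)-C cells. SYT1, the main calcium sensor of fast release, stood at 0.275 and 0.456 against 37.4, 56.6 and 58.8. CPLX1 stood at 0.639 and 0.711 against 42.1, 43.8 and 61.2. No library of one line overlapped the other for these 3 genes. RAB3C and SYT4 were listed at 0 in every SHEP-21N library and had means of 52.5 ± 1.63 and 8.57 ± 1.85 FPKM (SD, n = 3) in untreated BE(2)-C cells. SYN1, which tethers reserve vesicles, had means of 0.027 and 12.0 ± 0.202 in the same order of lines. SNAP25 stood at 1.66 and 1.76 against 24.6, 24.9 and 25.9, RIMS4 at 2.55 and 32.1 ± 0.549 on average, and RIMS3 at 0.259 and 17.1 ± 2.35.

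The reverse order held for other members. STX3, a syntaxin of apical and ribbon release sites, stood at 6.10 and 6.64 unnormalised FPKM in SHEP-21N cells and at 0.011 to 0.043 in BE(2)-C cells. STXBP6 (amisyn) had means of 4.99 and 0.036, and STX11, a syntaxin of immune cells, of 1.52 against 0 in all 3 BE(2)-C libraries. STX4, a plasma membrane syntaxin, stood at 22.6 and 22.96 against 4.57, 5.67 and 7.94. VAMP7, a VAMP of late endosomes, had means of 35.1 against 17.0 ± 2.20, and STX8, an endosomal syntaxin, of 25.05 against 7.92 ± 1.89. Other members were at like levels in both lines. SV2A stood at 24.4 and 26.7 against 23.8, 25.4 and 26.0, and STX1A at 8.79 and 9.22 against 8.39, 8.89 and 10.9, each with overlapping libraries. VAMP3 and STX10 overlapped as well. Among the 47 members tested in at least 1 line, all BE(2)-C libraries lay above all SHEP-21N libraries for 32. They lay below for 11 and overlapped for 4. Of these 47, 13 passed the filter only in BE(2)-C cells and 4 only in SHEP-21N cells, so part of this order follows from the filter. The share over all genes was not computed, so the counts do not show that these members stand out. Bulk values do not show whether a lower level is fewer expressing cells or less RNA per cell.

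**Figure D1:**
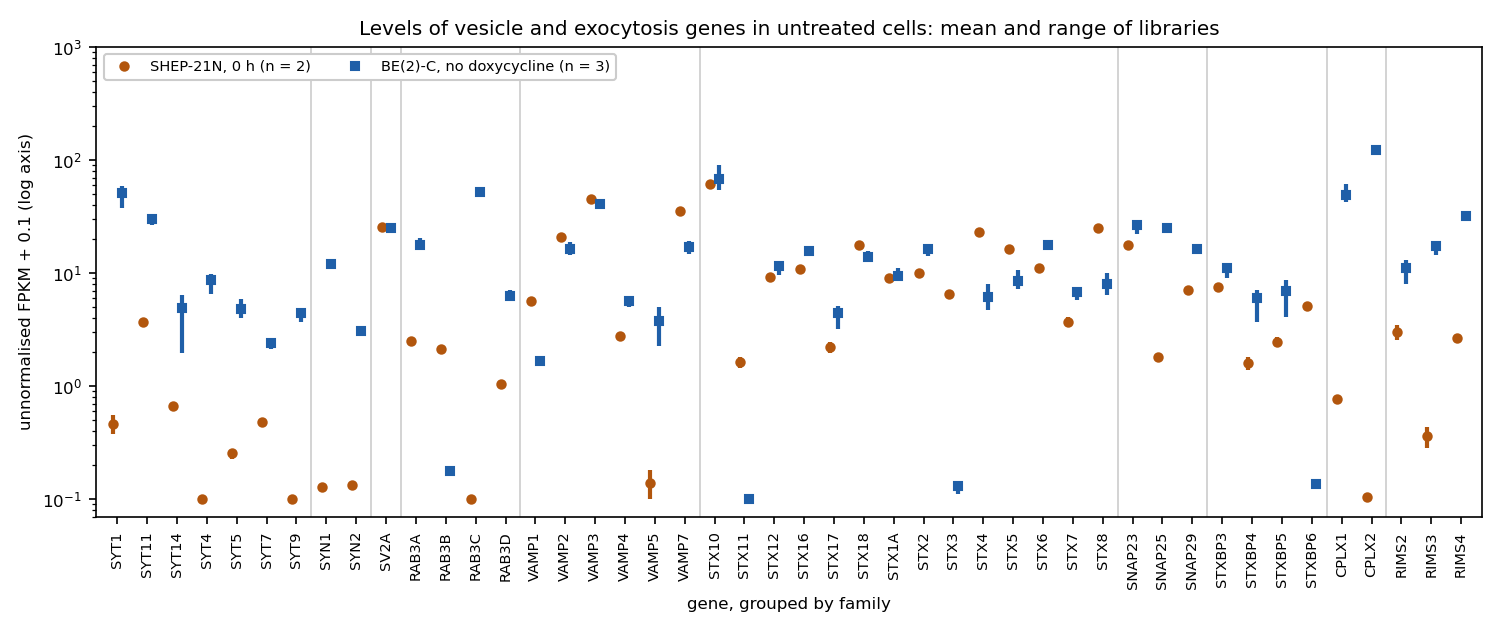
Unnormalised FPKM + 0.1 (log axis) of members tested in at least 1 line, grouped by family; points are means and bars the range of the 2 SHEP-21N libraries at 0 h (circles) and the 3 BE(2)-C libraries without doxycycline (squares). SYT1, CPLX1, CPLX2, RAB3C, SYN1 and SNAP25 are higher in BE(2)-C cells, STX3, STX11 and STXBP6 in SHEP-21N cells, and SV2A and STX1A lie together.

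After 24 h of MYCN shutdown 5 of 34 tested members fell and 2 rose on the rescaled values. Those that fell included STX1A, SNAP25 and RIMS4, which act at the neuronal release site, and STX10, a syntaxin of the trans-Golgi network. The 5 are 14.7% of the members tested, where 32.4% of all 11867 tested genes fell, and the 2 that rose are 5.88% against 6.16%. The median change of the members was -0.18 and that of all tested genes -0.31. A lower share of falls among the members than among all genes is a description of these counts and was not tested.

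STX1A stood at 9.76 and 10.3 rescaled FPKM at 0 h and at 4.43, 5.14 and 7.18 at 24 h, with no overlap. Its mean went from 10.0 ± 0.348 (n = 2) to 5.59 ± 1.43 (n = 3), a fall by 0.76 on the log2 scale (SE 0.183, adjusted p = 0.00477). SNAP25, the neuronal partner of syntaxin 1, stood at 1.99 and 2.00 at 0 h and at 0.899, 1.05 and 1.30 at 24 h (fell by 0.53, SE 0.156, adjusted p = 0.0148). All 3 later libraries again lay below both early ones. RIMS4, a short RIM protein, stood at 2.60 and 3.28 and then at 1.31, 1.64 and 1.98 (fell by 0.58, SE 0.157, adjusted p = 0.00972). STX10 had the highest level of these, with 59.2 and 74.0 at 0 h and 31.4, 39.2 and 52.4 at 24 h (fell by 0.71, SE 0.245, adjusted p = 0.0305). None of these genes overlapped between the groups. Beside these falls, the 10 adrenergic markers summed to 61.4 to 65.4 unnormalised FPKM at 0 h and 43.6 to 46.4 at 24 h, with 3 of 10 at 1 FPKM or more at both times and PHOX2A, TH and CHGA under 0.1. The 10 mesenchymal markers, all at 1 FPKM or more at both times, summed to 1320 to 1402 and then 2094 to 2224. The 4 mature neuron markers, 1 of them at 1 FPKM or more, summed to 6.60 to 7.46 and then 4.73 to 5.38, with SLC17A6 and SLC6A4 under 0.1. The 4 Schwann or glial markers, none at 1 FPKM, summed to 0.105 to 0.149 and then 0.181 to 0.328. The part of these lists in the result was not tested.

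The 2 members that rose were STXBP3, the Munc18 protein that pairs with STX4, and RAB3D. STXBP3 stood at 7.99 and 8.58 rescaled FPKM at 0 h and at 10.5, 11.6 and 14.4 at 24 h (change 0.49, SE 0.168, adjusted p = 0.0285). RAB3D stood at 1.08 and 1.20 and then at 1.42, 2.07 and 2.46 (change 0.46, SE 0.148, adjusted p = 0.0209). Neither overlapped between groups. Exons of RAB3D overlap those of TMEM205 on the same strand in GENCODE 29, so reads of these 2 genes may be shared even if counting used strand. Exons of RIMS4 overlap those of KCNK15 on the other strand, so their reads may be shared if strand was not used in counting. The same holds for STXBP5 with STXBP5-AS1 and VAMP1 with TAPBPL, 2 members named below. Of the 47 members tested in either line, 10 have exons that overlap those of another gene with values.

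Each of these 7 calls was lost when some 1 library was left out of the fit on rescaled values. The count of 5 lower members was 0 without the 0 h library numbered 2, 11 without the 24 h library numbered 0 and 2 without the 24 h library numbered 2. The count of 2 higher members was 0 without either 0 h library and 0 without the 24 h library numbered 0 or 1. Between the 3 libraries at 24 h the summed rescaled level of all members ran from 306 to 500 FPKM, while their unnormalised sum ran from 420 to 452.

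On unnormalised values, where each library keeps its own total, the same 5 members fell and 15 rose at 24 h. The 15 are 44.1% of the members tested against 28.9% of all tested genes, and the 5 are 14.7% against 36.4%. The medians were 0.10 for the members and -0.04 for all tested genes. The 15 were RAB3B, RAB3D, RIMS2, SNAP23, SNAP29, STX12, STX16, STX17, STX7, STXBP3, STXBP5, SYT11, VAMP1, VAMP4 and VAMP7. SYT11, an endosomal synaptotagmin that does not bind calcium, stood at 3.55 and 3.64 unnormalised FPKM and then at 6.07, 6.15 and 6.22 (change 0.64, SE 0.0608, adjusted p = 3.4e-07). STX7, a late endosomal syntaxin, stood at 3.22 and 3.99 and then at 5.87, 5.93 and 6.56 (change 0.63, adjusted p = 6.8e-05).

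VAMP7, which fuses late endosomes and lysosomes, stood at 33.3 and 36.9 unnormalised FPKM at 0 h and at 47.7, 48.1 and 52.1 at 24 h (change 0.48, adjusted p = 0.000443). SNAP23 went from 17.7 ± 0.684 to 22.2 ± 0.637 (change 0.31, adjusted p = 0.000821) and SNAP29, a SNAP25-type protein of autophagosome fusion, from 6.99 ± 0.0857 to 8.87 ± 0.279 (change 0.31, adjusted p = 2.59e-05). STX17, the syntaxin of autophagosomes, went from 2.11 ± 0.364 to 3.57 ± 0.126 (change 0.56, adjusted p = 0.00155). STXBP5 (tomosyn) changed by 0.54 (adjusted p = 0.00162), RAB3B by 0.44 (adjusted p = 0.000969) and RIMS2 by 0.29 (adjusted p = 0.029). On rescaled values these members did not pass, with changes of 0.35 for SYT11 and STX7, 0.20 for VAMP7, 0.03 for SNAP23 and 0.02 for SNAP29. SYT11, STX7, VAMP7, STX17, STXBP5, RAB3B and RIMS2 are named here after their values were seen. The same 15 rose and the same 5 fell when rescaled values were centred on the median gene of each library, where 29.6% of all tested genes rose and 32.2% fell.

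Without any 1 of the 5 libraries, the 5 that fell and 10 of the 15 that rose kept their calls on unnormalised values. The other 5 lost theirs without at least 1 library. STX16 and STX12 lost it without either 0 h library. VAMP4 lost it without either 0 h library and without the 24 h library numbered 0 or 2. STX12 also lost it without those 2 libraries, VAMP1 without them and without the 0 h library numbered 1, and RIMS2 without the 0 h library numbered 2 or the 24 h library numbered 0.

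**Figure D2:**
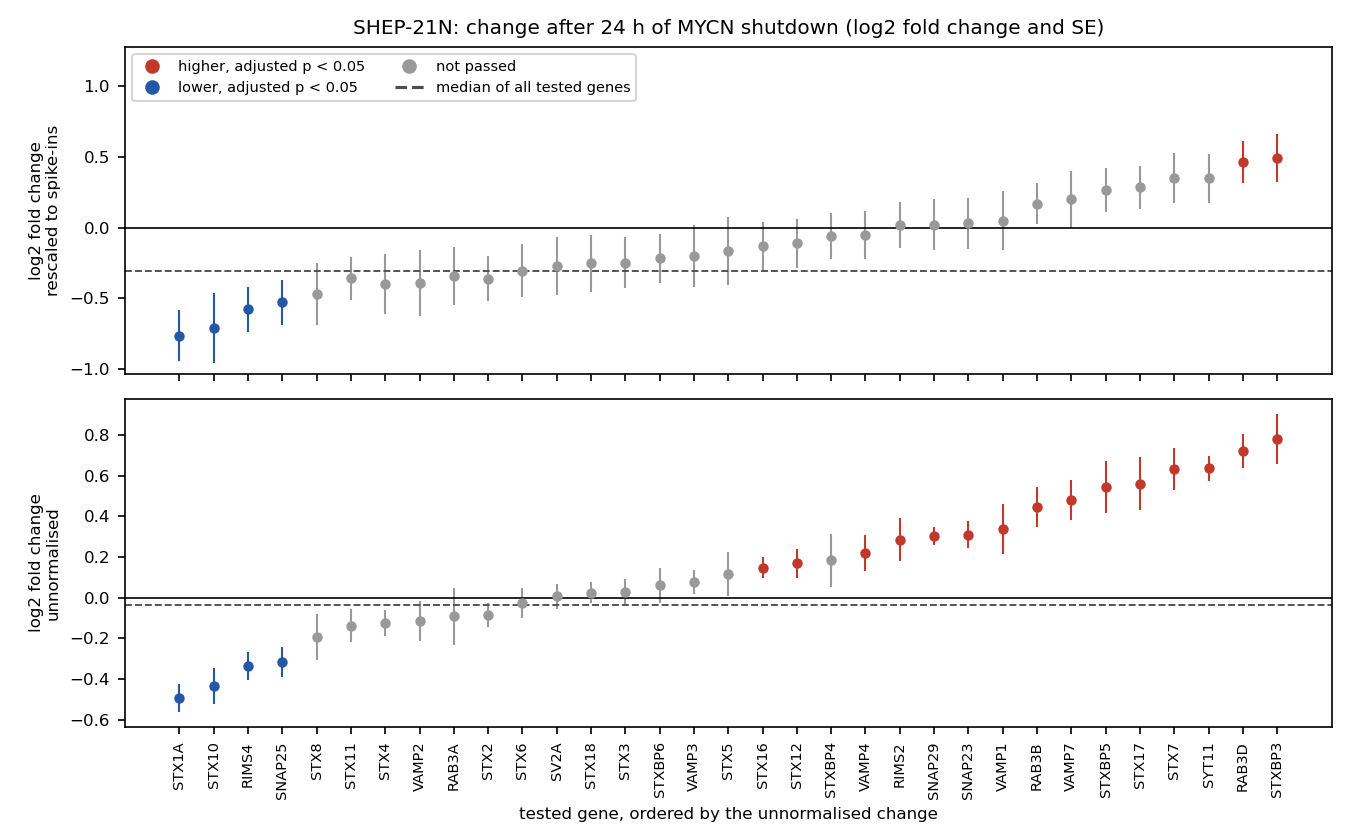
Log2 fold change (FPKM + 1) with SE of tested members at 24 h against 0 h in SHEP-21N cells, on rescaled values (upper panel) and unnormalised values (lower panel), ordered by the lower panel. STX1A, STX10, RIMS4 and SNAP25 are lower in both panels, RAB3D and STXBP3 higher in both, and 13 more members are higher only in the lower panel.

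Several members of the core machinery did not pass on either scale at 24 h. SV2A had means of 28.0 ± 4.13 and 23.2 ± 4.73 rescaled FPKM (change -0.27, adjusted p = 0.295) and 25.5 and 25.6 unnormalised. VAMP2, the neuronal vesicle VAMP, had means of 22.9 ± 3.08 and 17.7 ± 5.25 (change -0.39, adjusted p = 0.188), and RAB3A, the main RAB3 of synapses, of 2.76 ± 0.406 and 2.00 ± 0.60 (change -0.34, adjusted p = 0.185). VAMP3 (change -0.20, adjusted p = 0.473) and STX4 (change -0.40, adjusted p = 0.137), which serve constitutive exocytosis, did not pass either. Libraries of the 2 times overlapped on rescaled values for SV2A, VAMP2, VAMP3 and STX4, while those of RAB3A did not. A p that misses the threshold does not show that a level was the same.

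The members that were lower at 24 h did not share 1 course. On unnormalised values STX1A had means of 9.01 ± 0.309 at 0 h, 8.85 at 2 h, 7.27 at 4 h, 6.82 at 6 h, 7.98 at 8 h, 10.5 at 16 h and 6.13 at 24 h. It was lower at 4 h and 6 h (fell by 0.27 and fell by 0.36, adjusted p = 0.0107 and 0.000611), rose at 16 h (change 0.20, adjusted p = 0.0253) and fell at 24 h (fell by 0.49, adjusted p = 1.73e-05). On rescaled values the same contrasts did not pass before 24 h, and STX1A was lower at 24 h than at 16 h (fell by 0.94, adjusted p = 0.00274). SNAP25 stayed between 1.54 and 1.79 on average from 2 h to 16 h and dropped to 1.18 ± 0.0271 at 24 h. It too was lower at 24 h than at 16 h on rescaled values (fell by 0.47, adjusted p = 0.0454).

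On rescaled values STXBP3 was the first member called higher, at 6 h, and on unnormalised values STX16, STXBP3, STXBP5 and VAMP7 had risen at 4 h. STXBP3's unnormalised mean was 7.48 ± 0.917 at 0 h, 10.5 at 4 h, 13.4 at 6 h, 14.0 at 8 h, 12.4 at 16 h and 13.5 at 24 h, and it rose on rescaled values at 6, 8, 16 and 24 h. RAB3D had means of 0.942 at 0 h, 1.06 at 6 h, 1.52 at 8 h and 2.22 at 16 h, and rose on rescaled values at 16 h (change 0.73, adjusted p = 0.00696) and 24 h. RAB3B stood between 1.95 and 2.25 on average up to 8 h, at 4.23 ± 0.164 at 16 h and at 3.09 ± 0.20 at 24 h. Its rescaled level rose at 16 h (change 0.79, adjusted p = 0.00446) and was then lower at 24 h than at 16 h (fell by 0.62, adjusted p = 0.0103). STXBP6 showed a similar peak, with unnormalised means of 4.75 at 8 h, 7.62 ± 0.767 at 16 h and 5.25 at 24 h. Between 8 h and 16 h RAB3B and STXBP6 were the 2 members that rose on rescaled values (changes 0.74 and 0.62, adjusted p = 0.00406 and 0.0406) and 0 fell by limma, where 2.01% of all tested genes rose and 0.455% fell.

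On rescaled values 0 members passed at 2 h and 4 h by limma (0 and 3 at an unadjusted p under 0.05), 1 rose (STXBP3) and 1 fell at 6 h, 1 rose at 8 h and 3 rose at 16 h (RAB3B, RAB3D and STXBP3). For all tested genes 0.0% rose and 0.0506% fell at 2 h and 0.00843% rose and 0.0758% fell at 4 h. At 6 h 3.17% rose and 7.54% fell. At 8 h 3.92% rose and 3.83% fell, and at 16 h 5.13% rose and 3.04% fell. These small counts moved with single libraries: the 2 calls at 6 h became 0 without any 1 of the 5 libraries except the 6 h library numbered 1, without which 1 was left. The call at 8 h was lost without either 0 h library, and the 3 at 16 h became 0 without the 0 h library numbered 2 and 7 without the 16 h library numbered 0. Between 16 h and 24 h 5 members fell (RAB3B, SNAP25, STX11, STX1A and STXBP6) and 0 rose, where 7.63% of all tested genes fell and 0.244% rose. The labels give index sequences used at 0, 2 and 4 h again at 8, 16 and 24 h, and name no batch. If the libraries of 0, 2 and 4 h were handled apart from those of 8, 16 and 24 h, this cannot be told apart from time. That limit applies to 8, 16 and 24 h against 0 h, so also to the 24 h changes above.

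On unnormalised values more members passed early. At 2 h limma called 0 (2 at an unadjusted p under 0.05), where 0.236% of all tested genes rose and 0.345% fell. At 4 h 4 members rose and 2 fell (all tested genes 15.8% and 18.1%), and at 6 h 13 rose and 3 fell (26.8% and 29.8%). At 8 h 14 rose and 4 fell (25.0% and 29.2%), and at 16 h 16 rose and 3 fell (23.8% and 27.5%). SYT11 was among those that rose at 6 h (change 0.20, adjusted p = 0.0112), 8 h (0.40) and 16 h (0.46).

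**Figure D3:**
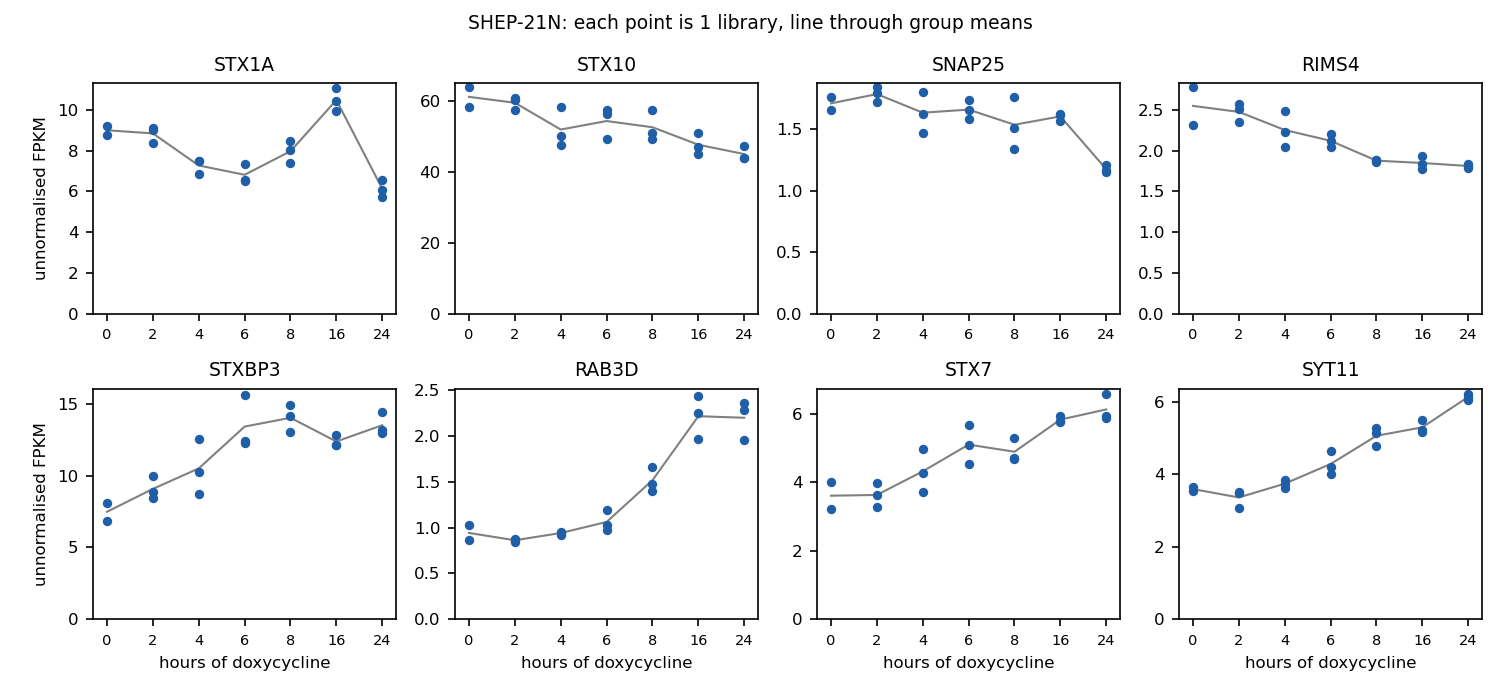
Unnormalised FPKM (axes from 0) of 8 members in SHEP-21N cells by hours of doxycycline; each point is 1 library and lines join group means. STX1A dips at 4 h and 6 h, peaks at 16 h and is lowest at 24 h, SNAP25 is low only at 24 h, STXBP3 is high from 6 h on, and SYT11 is highest at 24 h.

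A further 33 members lay under the filter in SHEP-21N cells, and 28 of them had a value above 0 in some library. In the fit without a filter, 2 of these 28 rose and 3 fell on rescaled values at 24 h. These are 7.14% and 10.7%, where 4.9% and 18.6% of all 19003 genes in that fit rose and fell. SYT1 had unnormalised values of 0.275 and 0.456 FPKM at 0 h, means of 0.424 at 8 h and 0.949 at 16 h, and values of 1.03, 1.16 and 1.48 at 24 h (change 0.49, adjusted p = 0.00324). RIMS3 went from 0.185 and 0.333 to 0.823, 0.968 and 1.01 (change 0.44, adjusted p = 0.00169). CPLX1 went from 0.639 and 0.711 to 0.155, 0.276 and 0.289 (fell by 0.50, adjusted p = 0.00118). SYT7 and SYT5 also fell. All of these stayed at 1.48 FPKM or less, below their levels in BE(2)-C cells. Values listed at 0 stand at 0.084 to 0.113 FPKM in the rescaled table of this line, so a level near 0.1 there is no sign of expression.

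After 48 h of the TWIST1 hairpin 42 of 43 tested members fell on rescaled values in BE(2)-C cells, and SYT4 was the exception. The 42 are 97.7% of members against 93.3% of all 11433 tested genes, 0 members rose by limma (0 also at an unadjusted p under 0.05) against 0.131%, and the medians were -1.35 and -1.36. The members thus moved with the rest of the RNA on this scale. Their summed rescaled level was 1100 ± 287 FPKM without doxycycline and 366 ± 159 at 48 h, while the unnormalised sum was 854 ± 9.51 and 840 ± 6.77. SYT4, a synaptotagmin of dense-core vesicles, stood at 6.00, 13.2 and 15 rescaled FPKM without doxycycline and at 5.53, 9.86 and 15.3 at 48 h (change -0.15, SE 0.363, adjusted p = 0.678), with overlapping libraries.

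The steepest falls on rescaled values were those of STX10 and CPLX1. STX10 stood at 71.9, 85.2 and 95.6 rescaled FPKM without doxycycline and at 10.4, 15.1 and 25.2 at 48 h (fell by 2.33, SE 0.351, adjusted p = 7.19e-06). CPLX1 stood at 57.8, 57.8 and 66.7 and then at 7.99, 12.2 and 19.3 (fell by 2.20, SE 0.35, adjusted p = 1.35e-05). Neither overlapped between the groups. STX2 stood at 13.1, 23.2 and 26.5 and then at 2.91, 4.23 and 6.45 (fell by 1.98, adjusted p = 3.03e-05). STX4 and STX6, an endosomal and trans-Golgi syntaxin, each fell by 1.92, RAB3D fell by 1.84, RAB3A fell by 1.81 and STX1A fell by 1.81. The calls of RIMS2, SYT1 and STXBP3, which were among the smaller falls (-0.97, -0.96 and -1.08), did not hold when 48 h library number 2 was dropped (adjusted p = 0.118, 0.115 and 0.0545). Those of RIMS2 and SYT1 were also lost without the no-doxycycline library numbered 0 (0.103 and 0.128) or 2 (0.0622 and 0.0719).

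On unnormalised values the members separated into 7 that rose, 19 that fell and 17 that did not pass at 48 h. The 7 are 16.3% of members against 18.1% of all tested genes, and the 19 are 44.2% against 21.3%. The medians were -0.13 for the members and 0.02 for all tested genes. The 7 were SYT4, SYT1, SYT11, SNAP25, RAB3C, RIMS2 and STXBP3, so 3 of the 7 tested synaptotagmins rose, while SYT5 and SYT7 fell and SYT9 and SYT14 did not pass. The fallers held 8 of the 12 tested syntaxins and both tested complexins, and no tested VAMP passed in either direction on unnormalised values. On centred values SYT9 and SYT14 rose as well, so 5 of the 7 synaptotagmins rose while SYT5 and SYT7 did not pass. VAMP1 and VAMP4 rose there, and 6 of the 12 syntaxins fell and 1 rose. Centring takes off the fall of the median gene, which FPKM + 1 understates for low genes, so low members can seem to rise. VAMP1 averaged 1.36 FPKM and its unnormalised change was -0.25 (adjusted p = 0.053). SYT7 averaged 1.91 FPKM, with an unnormalised change of -0.64 (adjusted p = 1.69e-05). Beside these counts, the 10 mesenchymal markers summed to 614 to 1132 unnormalised FPKM without doxycycline and 508 to 523 at 48 h, with 4 of 10 at 1 FPKM or more at both. The 10 adrenergic markers, all at 1 FPKM or more, summed to 2800 to 3714 and 2999 to 3114. The 4 glial markers, 1 of them at 1 FPKM or more, summed to 4.56 to 7.07 and 6.69 to 8.01, and the 4 mature neuron markers to 0.111 or less and 0.0669 or less. The part of these lists in the counts was not tested.

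SYT4 rose most. It stood at 6.44, 9.54 and 9.74 unnormalised FPKM without doxycycline and at 21, 23.9 and 24.1 at 48 h, a change of 1.34 (SE 0.121, adjusted p = 6.39e-07). SYT1 stood at 37.4, 56.6 and 58.8 and then at 78.2, 80.3 and 81.9 (change 0.67, SE 0.119, adjusted p = 0.000404). RAB3C, a vesicle RAB3, stood at 51.1, 52.2 and 54.3 and then at 69.2, 71.7 and 73.9 (change 0.44, adjusted p = 1.64e-05). None of these overlapped between the groups. SYT11 went from 29.8 ± 3.03 to 39.6 ± 0.842 (change 0.40, adjusted p = 0.000102), SNAP25 from 25.1 ± 0.722 to 33.4 ± 1.48 (change 0.40, adjusted p = 0.000125), RIMS2, the RIM scaffold of release sites, from 11.1 ± 2.73 to 15.6 ± 1.35 (change 0.49, adjusted p = 0.00791) and STXBP3 from 11 ± 1.88 to 14.3 ± 0.882 (change 0.36, adjusted p = 0.00503). All 7 rises hold on unnormalised and centred values only. On rescaled values SYT4 did not pass and the other 6 fell. SYT4, SYT11 and RAB3C are named here after their values were seen.

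The 19 that fell on unnormalised values also fell on rescaled values, and 15 of them fell on centred values too, where 21.9% of all tested genes fell and 30.6% rose. Among these 15 were CPLX1, CPLX2, RAB3A, RAB3D, RIMS3, RIMS4, SNAP29, STX10, STX16, STX1A, STX2, STX4, STX6 and SYN1. STX4 stood at 4.57, 5.67 and 7.94 unnormalised FPKM without doxycycline and at 2.39, 2.64 and 2.81 at 48 h (fell by 0.94, adjusted p = 0.000261). RAB3D stood at 5.61, 5.95 and 6.91 and then at 3.00, 3.10 and 3.11 (fell by 0.81, SE 0.0628, adjusted p = 1.29e-07). STX1A stood at 8.39, 8.89 and 10.9 and then at 5.48, 6.05 and 6.71 (fell by 0.55, adjusted p = 0.000101), and CPLX1 at 42.1, 43.8 and 61.2 and then at 30.4, 30.9 and 31.0 (fell by 0.63, adjusted p = 8.92e-05). No library overlapped in these 4 genes. SYN1 went from 12.0 ± 0.202 to 8.85 ± 0.447 (fell by 0.40, adjusted p = 0.00031), though its exons overlap ARAF on the other strand. CPLX2, the most abundant member, went from 122.5 ± 1.97 to 110 ± 2.44 (fell by 0.15, adjusted p = 0.00301).

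The fall of RAB3A (17.6 ± 2.16 to 13.3 ± 0.809 unnormalised FPKM, fell by 0.37, adjusted p = 0.00116) was of middle size. SV2A (25.1 ± 1.13 and 27.2 ± 0.283, change 0.12, adjusted p = 0.0604), VAMP2 (16.1 ± 2.35 and 17.9 ± 0.599, change 0.15, adjusted p = 0.140), VAMP3 (40.6 ± 2.40 and 44.9 ± 1.38, change 0.14, adjusted p = 0.0533) and SNAP23 (26.3 ± 3.88 and 23.9 ± 1.00, change -0.13, adjusted p = 0.302) did not pass on unnormalised values. Without any 1 of the 6 libraries, the 7 risers and 16 of the 19 fallers kept their calls. STX8 lost it without the 48 h library numbered 0 (adjusted p = 0.050), RIMS3 without the 48 h library numbered 1 or the no-doxycycline library numbered 0 or 2, and STX7 without those 3 and without the 48 h library numbered 2. Without the no-doxycycline library numbered 1 that stood apart, 11 members rose and 22 fell. In that library SYT4 stood at 6.44 unnormalised FPKM against 9.54 and 9.74, SYT1 at 37.4 against 56.6 and 58.8, STX10 stood at 90.2 unnormalised FPKM against 54.6 and 60.2, CPLX1 at 61.2 against 42.1 and 43.8, and SYT14 at 1.87 against 6.13 and 6.29.

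**Figure D4:**
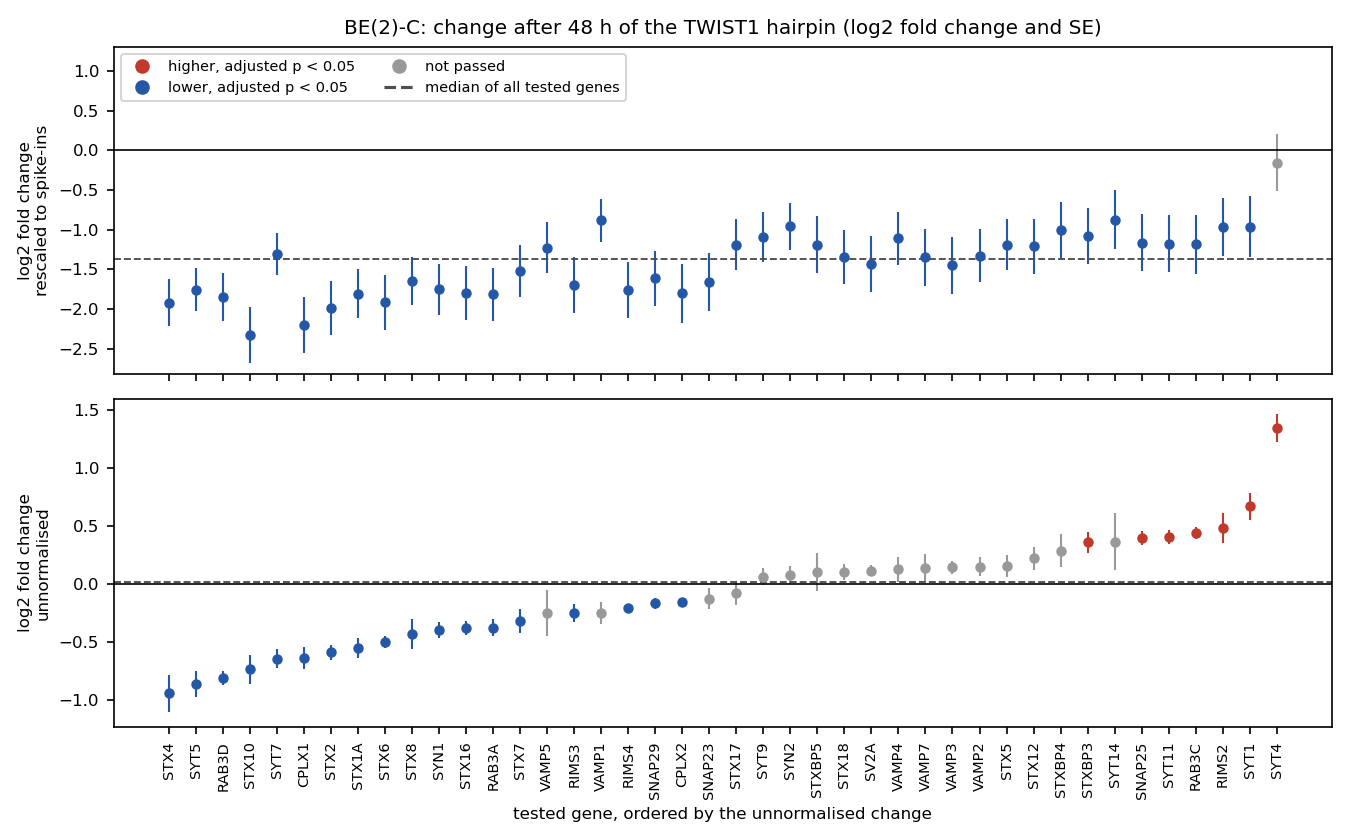
Log2 fold change (FPKM + 1) with SE of tested members at 48 h against no doxycycline in BE(2)-C cells, on rescaled values (upper panel) and unnormalised values (lower panel), ordered by the lower panel. All members shown but SYT4 are lower in the upper panel around the median of all tested genes, and in the lower panel SYT4 and SYT1 are highest and STX4, SYT5 and RAB3D lowest.

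On unnormalised values mean SYT4 was higher at each successive time of doxycycline. It was 8.57 ± 1.85 FPKM without doxycycline, 9.02 at 3 h, 9.93 at 6 h, 11.4 at 12 h, 16.7 ± 0.709 at 24 h and 23 ± 1.72 at 48 h, and it first passed at 24 h (change 0.91, adjusted p = 7.12e-05). On rescaled values SYT4 did not pass at any time, with changes from -0.36 at 3 h to 0.67 at 24 h (adjusted p = 0.454 and 0.889). SYT1 had unnormalised means of 51.0 ± 11.8, then 54.5, 54.3, 59.5, 69.1 ± 0.626 and 80.1 ± 1.87, and also passed from 24 h (change 0.46, adjusted p = 0.0112). SYT5, a synaptotagmin of dense-core vesicles, took the opposite course with 4.69 ± 1.02 without doxycycline, 3.62 at 12 h, 2.24 at 24 h and 2.10 at 48 h (at 24 h fell by 0.80, adjusted p = 0.000122). STX1A stood at 9.81 at 12 h and did not pass at 24 h (change -0.20, adjusted p = 0.0958).

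Few members passed up to 12 h on either scale, and more did at 24 h on unnormalised values only. On rescaled values limma called 0 at 3, 6, 12 and 24 h, with 1, 0, 0 and 5 members at an unadjusted p under 0.05. Of all tested genes 0.0175% rose at each of the 4 times, and 0.0175%, 0.0175%, 0.0262% and 0.586% fell. On unnormalised values 0 members passed at 3 h and 6 h by limma (3 and 9 at an unadjusted p under 0.05). At those times 0.0% and 0.00875% of all tested genes rose and 0.0175% and 0.472% fell. At 12 h SYT9 rose and STX6 fell (all tested genes 0.752% and 3.33%). At 24 h 5 members rose and 13 fell, 11.6% and 30.2% against 9.55% and 13.6% of all tested genes. Those that rose at 24 h were SYT4, SYT1, RIMS2, STXBP3 and RAB3C.

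**Figure D5:**
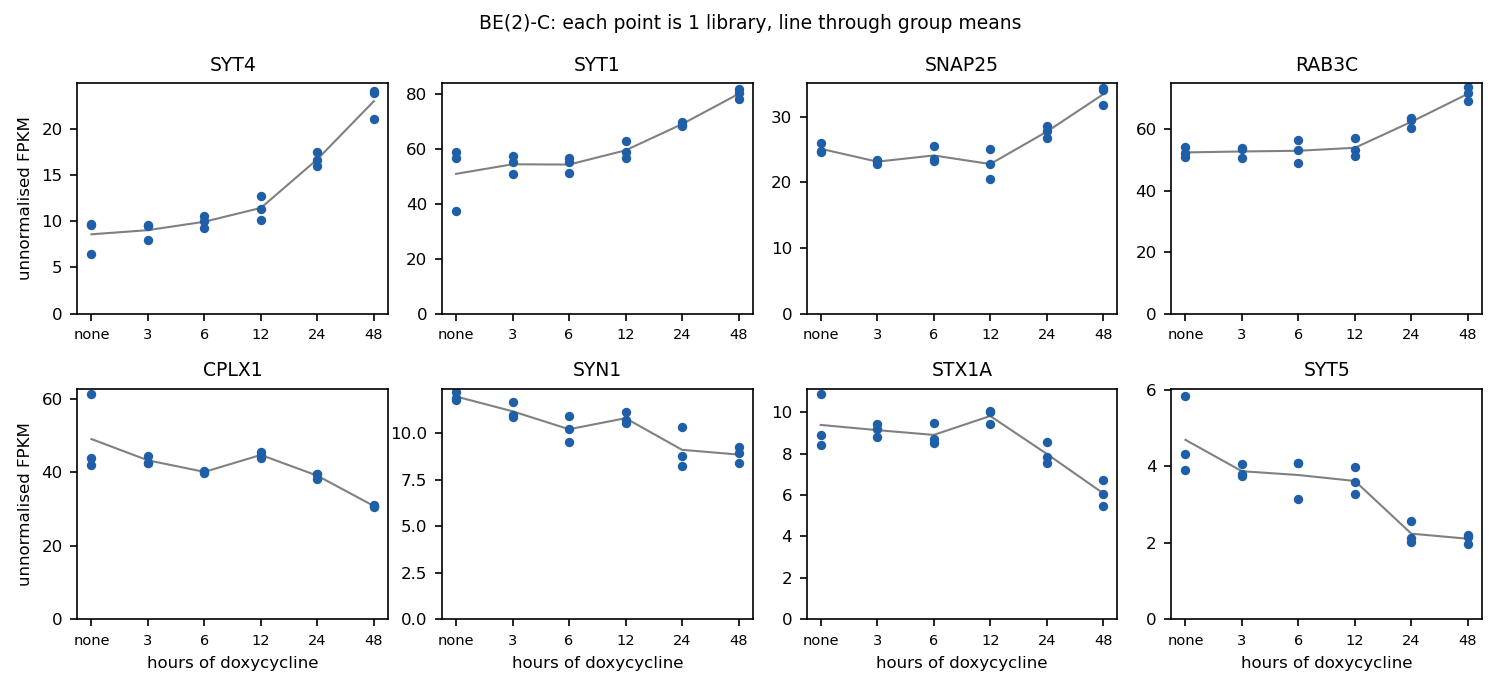
Unnormalised FPKM (axes from 0) of 8 members in BE(2)-C cells by hours of doxycycline; each point is 1 library and lines join group means. SYT4, SYT1, SNAP25 and RAB3C are highest at 48 h, CPLX1, SYN1, STX1A and SYT5 are lowest at 48 h, and 1 library without doxycycline stands apart for SYT4, SYT1, CPLX1 and SYT5.

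Set side by side at the latest time on unnormalised values, each against its own line's controls, STX1A fell by 0.49 in SHEP-21N and fell by 0.55 in BE(2)-C cells, and STX10 fell by 0.43 and fell by 0.73. RIMS4 also fell in both (-0.33 and -0.21), while STXBP3 and SYT11 rose in both (0.78 and 0.36, 0.64 and 0.40). RAB3D rose in SHEP-21N (0.72) and fell in BE(2)-C cells (-0.81), and SNAP25 fell in SHEP-21N (-0.32) and rose in BE(2)-C cells (0.40). STX7, SNAP29 and STX16 also rose in SHEP-21N and fell in BE(2)-C cells. The fall of STX7 in BE(2)-C cells and the rise of STX16 in SHEP-21N cells were lost without some single libraries, as given above. On centred values STX7 did not fall by limma in BE(2)-C cells. These directions are of unnormalised values and in part did not hold on rescaled values. There SNAP25, STXBP3 and SYT11 fell in BE(2)-C cells, and SYT11, STX7, SNAP29 and STX16 did not pass in SHEP-21N cells. Exons of STX16 also overlap those of STX16-NPEPL1 on the same strand. The genes of this comparison were picked after their values were seen, the perturbations and times differ, and no test was made between the lines.

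A second list, chosen with earlier results of these data known, held 93 other genes of vesicle release and membrane fusion. Among them were priming factors, vesicle transporters, the exocyst, vesicle-budding proteins and fusion proteins of the Golgi. Of 64 tested in SHEP-21N cells 6 rose and 14 fell on rescaled values at 24 h, which is 9.38% and 21.9% against 6.16% and 32.4% of all tested genes. On unnormalised values 23 rose and 18 fell, 35.9% and 28.1% against 28.9% and 36.4%. SYTL2, a synaptotagmin-like RAB27 partner, rose from 1.85 ± 0.412 to 4.96 ± 1.14 rescaled FPKM (change 1.05, adjusted p = 0.000152), and UNC13D, a priming factor of blood cell granules, from 3.27 ± 0.185 to 6.60 ± 1.06 (change 0.83, adjusted p = 0.00206). SCFD2, a Sec1-type protein, fell from 17.3 ± 2.12 to 7.18 ± 1.42 (fell by 1.17, adjusted p = 0.000397). Of 70 tested in BE(2)-C cells 67 fell on rescaled values at 48 h, 95.7% against 93.3% of all tested genes. By limma 0 rose, against 0.131%, and 0 had a change above 0 at any p. On unnormalised values 17 rose and 19 fell, 24.3% and 27.1% against 18.1% and 21.3%. UNC13A, the Munc13 that primes synaptic vesicles, went from 15.1 ± 3.79 to 3.77 ± 0.214 unnormalised FPKM (fell by 1.73, adjusted p = 9.85e-08), and YKT6, a SNARE of the Golgi, from 56.6 ± 8.20 to 30.5 ± 0.392 (fell by 0.86, adjusted p = 2.52e-07). SLC18A2, the vesicular monoamine transporter VMAT2, rose from 4.05 ± 0.914 to 11.8 ± 0.585 (change 1.36, adjusted p = 1.7e-07), and did not pass on rescaled values (change -0.01, adjusted p = 0.979).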

How the data were processed

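RNA was measured in 20 SHEP-21N and 18 BE(2)-C libraries. Cells were counted, per the labels' protocols, ERCC spike-ins were added at lysis, and polyadenylated RNA went into an Illumina stranded preparation. Per the submitters' processing notes, HISAT, Cufflinks 2.0.0 and hg19 were used. The authors deposited 2 FPKM tables per line, 1 unnormalised and 1 rescaled to ERCC RNA. The sources used here do not give how rescaling was done or whether counting used strand. FPKM hold no read numbers, so depth and counting error are unknown. Columns were matched to groups by name. The number ending a column name only tells libraries apart. The other 11 of the 49 listed samples (BE(2)-C with DMSO or JQ1) are not analysed here.

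The values computed here, with R 4.3.3, limma 3.58.1, Python 3.11.15, numpy 2.4.6, pandas 2.3.3 and matplotlib 3.10.9, were the following. Genes averaging 1 unnormalised FPKM or more, without spike-ins, were tested by limma (moderated variances, intensity trend) on log2(rescaled FPKM + 1) with 1 mean per time, each time against 0 h or no doxycycline. Adjusted p is the Benjamini-Hochberg value over all tested genes, 11867 and 11433, and a call is an adjusted p under 0.05. All contrasts of a line share its control libraries. The script was tested on simulated data. Alternatives were unnormalised values, rescaled values centred on each library's median, a pseudocount of 0.1, no filter, a mean of at least 5 FPKM, only the 2 groups compared, each library left out, and the column number as a block. Leaving out each library on unnormalised values was added after seeing the data.

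Values, by library or as mean and SD, are given for members called at the latest time with the largest changes (up to 8 a direction), for core neuronal release genes and their widely expressed counterparts, and for genes named as chosen after their values were seen. Members and lists were chosen with earlier results of these data known. Exon overlaps come from GENCODE 29 and upstream sequences from RefSeq, both on GRCh38, not the build of the files. Some items are not reported here, and counts of members include them.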

Additional observations from a re-analysis of the deposited data

How the results depend on the processing

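Counts of called members depended on the scale. On unnormalised and on centred values the members called in SHEP-21N cells were 6 and 6 at 4 h, 16 and 15 at 6 h, 18 and 14 at 8 h, and 19 and 19 at 16 h, those higher at 24 h were 15 and 15, and those lower stayed at 5. In BE(2)-C cells the same scales called 2 and 3 members at 12 h, 18 and 14 at 24 h, and at 48 h 7 and 14 higher and 19 and 16 lower. Without a filter, the SHEP-21N counts were 2 at 8 h, 6 at 16 h, and 8 lower and 4 higher at 24 h, with 62 members fitted. With a mean of at least 5 FPKM they were 1 at 16 h, and 3 lower and 1 higher at 24 h, with 21 fitted. With only the 2 groups compared they were 4 at 6 h, 6 at 8 h, and 3 lower and 1 higher at 24 h, and 1 for BE(2)-C cells at 24 h. A pseudocount of 0.1 gave 2 at 8 h in SHEP-21N cells. Other alternatives of these counts stayed within 1.5 times. The cause was not tested where the number of genes or samples does not give it.

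Leaving out 1 library at a time gave, in SHEP-21N cells, 0 to 0 calls at 2 h and 4 h, 0 to 1 at 6 h and 8 h, 0 to 7 at 16 h, 0 to 11 lower and 0 to 2 higher at 24 h, and a MYCN change of -5.87 to -5.58. On unnormalised values it gave 5 to 6 lower and 11 to 15 higher. In BE(2)-C cells it gave 0 to 0 calls at 3, 6, 12 and 24 h, 37 to 42 lower and 0 to 0 higher at 48 h, and a TWIST1 change of -3.56 to -2.996. On unnormalised values it gave 17 to 22 lower and 7 to 11 higher.

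Directions of named members turned as follows. At 48 h in BE(2)-C cells, unnormalised and centred changes were 0.44 and 0.24 for RAB3C, 0.49 and 0.46 for RIMS2, 0.40 and 0.26 for SNAP25, 0.36 and 0.35 for STXBP3, 0.67 and 0.46 for SYT1, 0.40 and 0.25 for SYT11, 1.34 and 1.27 for SYT4, and 0.15 and 0.096 for VAMP2. Unnormalised changes alone turned for SV2A (0.12) and VAMP3 (0.14). On rescaled values with each library dropped in turn, SYT4 ranged from -0.52 to 0.19, with 0.19 for 48 h number 2 and 0.072 for no-doxycycline number 0 dropped. At 24 h in SHEP-21N cells, unnormalised and centred changes were 0.0082 and 0.029 for SV2A and 0.077 and 0.0999 for VAMP3, which ranged from -0.40 to 0.0028 on rescaled values with each library dropped in turn (0.0028 for 24 h number 2). Without the 24 h library numbered 0, RIMS2 was -0.15, SNAP23 -0.13 and SNAP29 -0.13. RIMS2 was -0.11 without the 0 h library numbered 2, and SNAP23 was -0.014 and SNAP29 -0.026 without the 0 h library numbered 1. The highest values over such fits were 0.20 for SNAP23 and 0.16 for SNAP29.

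Column numbers did not pair the samples: deviations from group means of same-numbered libraries of different times had correlations of -0.28 to 0.18 in SHEP-21N and -0.16 to 0.24 in BE(2)-C cells (medians -0.021 and 0.0087). With the column number as a replicate block, 1 member was called at 6 h in SHEP-21N cells and 1 at 24 h in BE(2)-C cells, RIMS2 at 24 h in SHEP-21N cells was -0.010, and the other counts stayed within 1.5 times. FPKM give no depth, so no limit can be set for members listed at 0.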
